A study of Mus musculus with 8 samples.

Results

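Fragments of glutamine tRNAs were described in sorted pancreatic β-cells of diabetic (db/db) and control (wild-type) mice. They were taken as every sequence listed under a name that contains Gln, which gave 55 of the 2226 fragment sequences in the table and 161998 unique molecules over the 8 libraries. All 55 were listed under 1 name, Gln-CTG, the glutamine tRNA whose anticodon is CTG, and 0 sequences were listed under Gln-TTG, the other glutamine isoacceptor. The study asked how tRNA-derived fragments (tRFs) of β-cells differ when diabetes develops. There were 4 libraries of db/db mice and 4 of wild-type mice, all male and 8 weeks old. The db/db mice carry Leprdb, an allele that disrupts the leptin receptor in the whole animal and makes the mice obese and diabetic. The β-cells were sorted by their autofluorescence, and the islets of several mice were pooled for a preparation. The table held tRFs only, so the identity of the cells could not be checked against β-cell markers. A library held between 630696 and 1265123 tRF counts in wild-type β-cells and between 582165 and 2946290 in db/db β-cells.

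A glutamine tRNA carries glutamine to the ribosome. The gene ends before the sequence CCA, the tail to which the amino acid is bound. The enzyme TRNT1 adds this tail to every tRNA after transcription and adds it again when it has been trimmed. Going from the 5′ end to the 3′ end, the mature tRNA passes through the D arm, the anticodon arm, the T arm and the acceptor stem, so a 3′tRF holds part of the T arm, the last strand of the acceptor stem and the tail. Glutamine tRNA is known in β-cells as a substrate of the methyltransferase TRMT10A, whose loss causes diabetes in humans and leads to the release of 5′ fragments of this tRNA that are toxic to β-cells. Initiator methionine tRNA, named iMet-CAT in the table, is another substrate of this enzyme.

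The sequences that carry the results are shown first. Each is written 5′ to 3′ in lower case, as the DNA letters of the table, and capitals mark the base at position 68 and those letters of the CCA tail that the fragment still has. Positions count from 1 at the first base of the tRNA and follow from the 72 nt of every glutamine tRNA gene in RefSeq, which makes 75 nt with CCA. The 5 most abundant fragments all ended in the complete tail.
tRF-Gln 51 to 75: agttcaaatctcggtggAacctCCA
tRF-Gln 52 to 75: gttcaaatctcggtggAacctCCA
tRF-Gln 53 to 75: ttcaaatctcggtggAacctCCA
tRF-Gln 54 to 75: tcaaatctcggtggAacctCCA
tRF-Gln 55 to 75: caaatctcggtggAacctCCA
The next 6 stopped 1 base before the end of the tail. They are the most abundant fragment of this kind and the 5 with the largest decrease.
tRF-Gln 55 to 74: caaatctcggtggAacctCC
tRF-Gln 56 to 74: aaatctcggtggAacctCC
tRF-Gln 57 to 74: aatctcggtggAacctCC
tRF-Gln 59 to 74: tctcggtggAacctCC
tRF-Gln 57 to 74, G at base 68: aatctcggtggGacctCC
tRF-Gln 51 to 74, G at base 68: agttcaaatctcggtggGacctCC
The last is the most abundant fragment from inside the tRNA that could be tested.
tRF-Gln 40 to 60: ccagcgatccgagttcaaatc

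The glutamine fragments came from the 3′ part of the tRNA alone. The first base covered by any of them was base 35, inside the anticodon, and 0 of the 55 held the whole anticodon. Of the 55, 26 ended in the complete CCA (complete 3′tRFs, 16 to 30 nt), 17 ended before it (short 3′tRFs, 16 to 24 nt), 12 were internal and 0 were 5′tRFs. By contrast, 24 of the 48 names in the table had a family of 5′tRFs and 24, Gln-CTG among them, had none. The table spans lengths of 16 to 30 nt and lists only sequences that reached 5 counts in 4 or more libraries. No limit can therefore be given for 5′tRFs of glutamine tRNA, and longer fragments from anticodon cleavage were not analysed here.

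The T arm was where most of the fragments began. The 9 letters GTTCAAATC, which lie in the T arm at bases 52 to 60, held the first base of 35 of the 55 fragments and of 18 of the 26 complete 3′tRFs. The complete 3′tRFs fell into a ladder of starts from base 46 to base 60, without base 48, and the short ones into a ladder from base 51 to base 59. Of the short fragments, 13 lacked 1 base of the tail, 4 lacked 2 bases and 0 lacked 3 bases. Of the internal fragments, 11 started between bases 35 and 43, and 1 ran from base 52 to base 71, in the acceptor stem.

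The fragments carried either of 2 bases at position 68, in the acceptor stem, a difference written A68G. Among the complete 3′tRFs, 14 sequences with 131659 counts had A and 12 sequences with 21589 counts had G. RefSeq lists 10 genes of the CTG isoacceptor in the mouse genome build GRCm38.p6, 4 on chromosome 3, 4 on chromosome 13 and 1 each on chromosomes 9 and 11. Those on chromosome 3 span 96341156 to 96341227 (n-TQctg5), 96399059 to 96399130 (n-TQctg4), 96479391 to 96479462 (n-TQctg3) and 97681459 to 97681530 (n-TQctg2, inside the gene Gm31242). Apart from n-TQctg2, the CTG genes lay inside no other annotated gene. There are 6 genes of the TTG isoacceptor, of which n-TQttg2 lies inside Brip1os and n-TQttg6 inside 4833417C18Rik. No fragment was assigned to a gene, and none holds the whole anticodon. The CTG and TTG isoacceptors were not compared at other bases, so whether a CTG or a TTG tRNA was the source was not determined.

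The total of all glutamine fragments did not pass the test for a difference between the genotypes. It stood at 16643, 18230.3, 16222 and 16784 CPM (counts relative to the scaled tRF total of the library, here scaled over tRNA names) in the wild-type libraries and at 20348, 17646, 21482 and 17671 CPM in the db/db libraries. The 2 ranges overlapped, and the total was ninth by level of the 48 names. The log2 fold change, db/db over wild type, was 0.18 ± 0.17 (SE), with an adjusted p of 0.635 in edgeR's quasi-likelihood test, and 4.17% of all names were called. A call needed an adjusted p below 0.1 and a fold change above 2. Unscaled, glutamine fragments made up 1.67% ± 0.161 of tRF counts in wild-type and 1.99% ± 0.416 in db/db libraries (SD, n = 4 each). Such values are relative to the tRF pool, so a change of the glutamine fragments and a change of the rest of the pool cannot be told apart. They give neither the number of cells nor the RNA per cell.

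Within this total the short 3′tRFs fell in db/db β-cells, and neither the complete 3′tRFs nor the internal fragments passed the test. The short family, the sum of its 17 sequences, stood at 2042, 2715, 1563 and 1518 CPM (scaled over families) in wild-type β-cells. In db/db β-cells it stood at 151, 158, 357 and 206 CPM. The lowest wild-type library was well above the highest db/db library. The mean was 1959 ± 557 against 218 ± 95.7 CPM (SD, n = 4 each), a log2 fold change of −3.16 ± 0.36 (SE), adjusted p = 2.92e-05 with edgeR. Of the 17 sequences, 10 reached the 5 counts in 4 libraries needed for listing only with the wild-type libraries. In a fit chosen after seeing the data, with the short families of every tRNA limited to sequences that the db/db libraries alone would list, 7 of them for glutamine, the log2 fold change came to −3.23 ± 0.35 (SE; edgeR, adjusted p = 2.50e-05). Among all 130 families tested, 20.8% were called and 17.7% were called lower, and among the families of short 3′tRFs 91.7% (22 of 24) were, so that a decrease was shared by almost every tRNA with such fragments. The glutamine family had the eighth lowest log2 fold change of these 24, whose median was −2.75.

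The complete family did not pass the test, and its direction depended on the scaling. Wild-type libraries held 13782, 13527, 12429 and 15630.4 CPM, and db/db libraries held 20511, 16773, 28317 and 16846 CPM. In this scaling over families the groups did not overlap, as in 23.8% of all families. The third db/db library lay far above the others of its group. The log2 fold change came to 0.57 ± 0.25 (SE; edgeR, adjusted p = 0.149). It was 0.31 with factors taken from the sequences, a fit chosen after seeing the data. It was 0.014 when libraries were scaled to the totals implied by the RPM values and −0.040 when scaled to sizes from the deposited log2 values. The median was 0.30 over the 45 families of complete 3′tRFs, of which 2.22% were called higher, as were 3.08% of all families. The internal family, at 125 ± 43.7 CPM in wild-type and 159 ± 42.1 CPM in db/db libraries, overlapped between the genotypes. Its log2 fold change came to 0.35 ± 0.30 (SE; edgeR, adjusted p = 0.484), and among all internal families 2.7% were called higher and 2.7% lower. By level, the short glutamine family was the fourth of 26 short families in wild-type β-cells and the fifth in db/db β-cells, whereas the complete family was at place 11 and place 9 of 45.

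**Figure D1:**
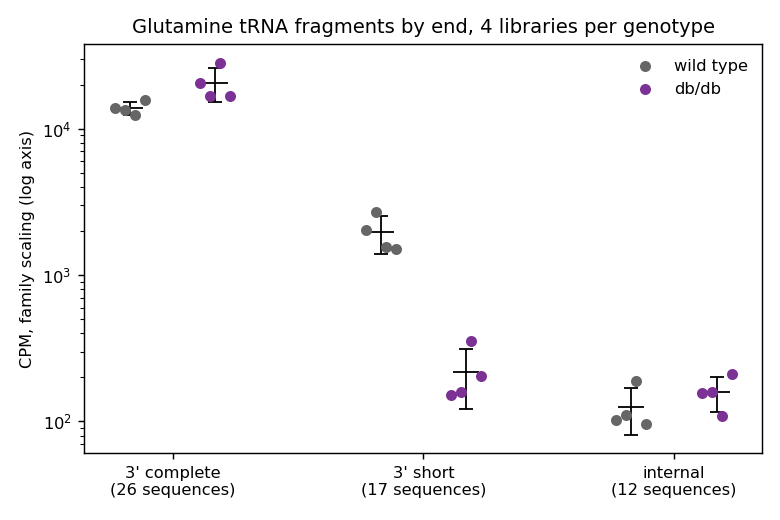
CPM of the 3 glutamine families in each library on a log10 axis, with wild-type and db/db libraries as separate points and the group mean with its SD (n = 4 libraries each) as a black bar. The short 3′tRFs lie between 1518 and 2715 CPM in wild-type and between 151 and 357 CPM in db/db libraries. The internal fragments overlap, and the complete 3′tRFs are separated by a smaller distance in this scaling over families.

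Sequence by sequence, the calls followed the last base of the fragment. Of the 55 sequences, 45 had enough counts for the test, namely all 26 complete, all 17 short and 2 of the 12 internal ones. Called lower were 17 and called higher 0, against 9.44% and 5.57% of all 1832 sequences tested (15.0% in either direction), and the same 17 had an unadjusted p below 0.05. All 17 were the short 3′tRFs. Their log2 fold changes ran from −4.05 to −2.50 with a median of −3.47, and their adjusted p from 1.77e-06 to 0.000991 (edgeR). Over the short 3′tRFs of all tRNAs 85.7% were called lower and the median was −3.04. The CPM of the genotypes did not overlap in any of the 17, as in 17.1% of all sequences and 85.7% of short ones. These counts are a description of listed sequences, since a sequence had to reach 5 counts in 4 libraries to be listed. The wild-type libraries alone met this minimum for 17 of the 17, and the db/db libraries alone met it for 7, whose log2 fold changes ran from −3.70 to −2.93.

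The most abundant short fragment, from base 55 to base 74, stood at 726, 445, 331 and 209 CPM (scaled over sequences) in the wild-type libraries. In the db/db libraries it stood at 23.2, 19.9, 84.8 and 40.9 CPM. The first wild-type library was the highest and the third db/db library was high for its group, but the groups were well apart, with a log2 fold change of −3.29 ± 0.48 (SE; edgeR, adjusted p = 3.55e-05). The 16-nt fragment from base 59 to base 74 stood at 349, 485, 289 and 208 CPM in wild-type and at 15.5, 18.1, 43.3 and 21.3 CPM in db/db libraries. Its log2 fold change of −3.70 ± 0.43 (SE; edgeR, adjusted p = 2.99e-06) was the second lowest of the glutamine fragments. The fragments from bases 56 and 57 to base 74 had log2 fold changes of −3.59 and −3.65, and each db/db library was below every wild-type library in both.

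The lowest log2 fold change belonged to a rare fragment, from base 57 to base 74 with G at base 68. It had 13, 23, 18 and 37 counts in the wild-type libraries and 0, 0, 6 and 3 counts in the db/db libraries. In the first and second db/db libraries, 0 counts allow up to 2.90 and 5.41 CPM (3 counts each, counting error only), against a wild-type mean of 28.3 ± 3.58 CPM. The fitted log2 fold change of −4.05 ± 0.70 (SE; edgeR, adjusted p = 0.000164) depends on the small count that the fit adds to zeros, and the fragment met the minimum for listing through the wild-type libraries alone. The fragment from base 51 to base 74 with G at base 68, the longest of the short ones, fell from 46.7 ± 23.5 to 3.49 ± 2.51 CPM (SD, n = 4 each; log2 fold change −3.58, edgeR adjusted p = 0.000163). It had 1, 1, 12 and 7 counts in the db/db libraries and likewise met the minimum for listing through wild type alone.

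Of the 26 complete 3′tRFs, 0 were called in either direction and 0 had groups that did not overlap, as 11.9% of the complete 3′tRFs of all tRNAs did not. Their log2 fold changes ran from −0.54 to 0.72 with a median of 0.30, beside 0.05 over the complete 3′tRFs of all tRNAs, and 23 were above 0 (adjusted p from 0.336 to 0.990, edgeR). Among all complete 3′tRFs 7.61% were called higher and 0.447% lower. The most abundant glutamine fragment of all, from base 52 to base 75, stood at 4420, 2899, 2518 and 2658 CPM in wild-type and at 3312, 2765, 4229 and 2872 CPM in db/db libraries. The ranges overlapped almost fully, with a log2 fold change of 0.077 ± 0.33 (SE; edgeR, adjusted p = 0.916). The fragment from base 55 to base 75, which is the most abundant short fragment plus the last A, stood at 2315, 1337, 1507 and 1169 CPM in wild-type and at 1938, 1567, 3482 and 1702 CPM in db/db libraries. The third db/db library was the highest and the others lay within the wild-type range, and the log2 fold change was 0.46 with the last A, against −3.29 without it. The fragments from bases 51, 53 and 54 to base 75 had log2 fold changes of 0.26, 0.30 and 0.55.

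**Figure D2:**
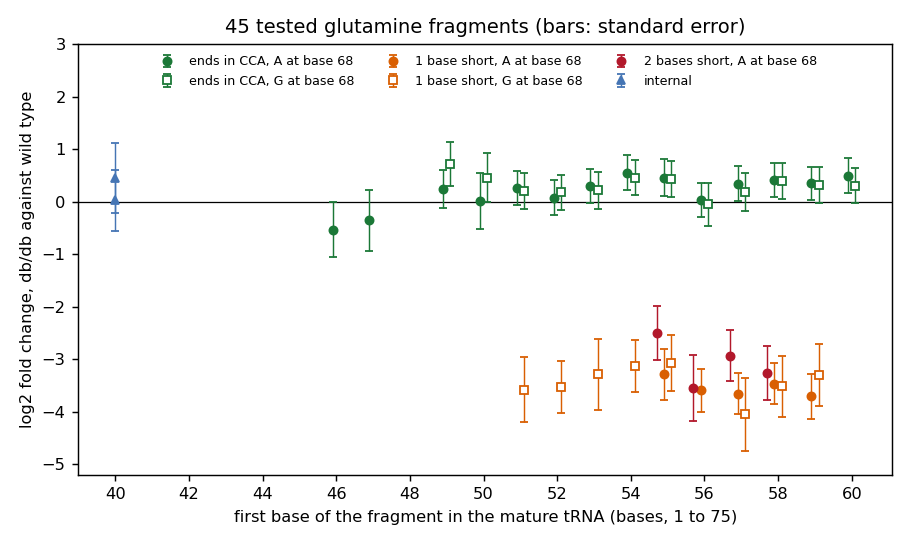
Log2 fold change (db/db over wild type) of the 45 tested glutamine fragments against the base at which they start, with bars of 1 SE and a symbol for each kind of end and base at position 68, and symbols with the same start moved slightly apart. All 17 short 3′tRFs lie between −4.05 and −2.50 whatever their start, and the complete and internal fragments lie between −0.54 and 0.72.

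The share of short ends does not depend on how the libraries are scaled, since it is a share within a library. Short fragments were 12.9%, 16.7%, 11.2% and 8.85% of glutamine 3′ ends in the wild-type libraries and 0.732%, 0.935%, 1.24% and 1.21% in the db/db libraries. These shares, like the sum of the short family and its place by level, hold listed fragments only. Fragments 1 base short with A at base 68 that start at bases 51 to 54, the starts of 4 of the 5 most abundant complete 3′tRFs, were not analysed here, so the values do not cover all short ends of this tRNA. The lowest wild-type share had a 95% Wilson interval of 8.48% to 9.24% and the highest db/db share one of 1.16% to 1.34%. The mean was 12.4% ± 3.31 against 1.03% ± 0.241 (SD, n = 4 each), a ratio of 12.1. Ends 1 base short went from 10.9% to 0.853% and ends 2 bases short from 1.50% to 0.176%. These shares were given without a test, since they rest on the same counts as the calls.

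The same start with another end gave the closest comparison, and it was chosen after the values had been seen. At 13 combinations of a start and a base at position 68, both the complete fragment and the one 1 base short were listed, and at each of them the short share of every wild-type library was above that of every db/db library. The tally is a description, since a pair needed a listed short fragment and the db/db libraries alone met the minimum for listing at 6 of the 13. With A at base 68, the mean short share at the 5 starts from base 55 to base 59 ran from 20.5% to 32.8% in wild-type and from 1.79% to 2.82% in db/db libraries. With G at base 68, it ran from 16.2% to 25.5% and from 1.25% to 2.80% over 8 starts. Both ladders had their highest wild-type share at base 59, where the short fragment has 16 nt, the smallest length in the table. Summed over these starts, the share was 24.9% ± 5.58 against 2.16% ± 0.598 with A and 19.6% ± 4.65 against 1.83% ± 0.751 with G (SD, n = 4 each).

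**Figure D3:**
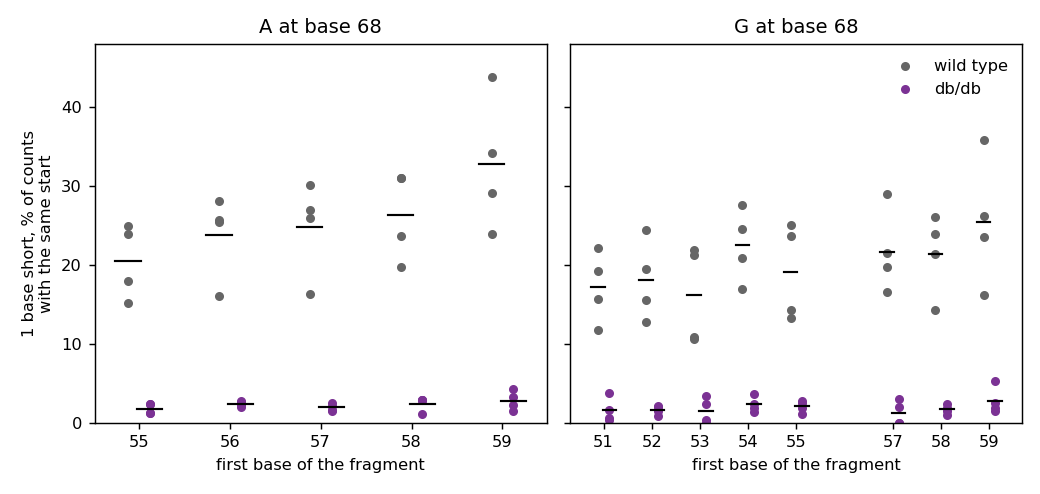
Share of fragments 1 base short among complete and 1-base-short fragments with the same start, in percent, for each start and each base at position 68, with a point per library and a line at the group mean. Wild-type means run from 16.2% to 32.8% and db/db means from 1.25% to 2.82%, and the genotypes do not overlap at any of the 13 points.

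At 4 of the starts, bases 55 to 58 with A at base 68, all 3 ends were listed. The complete end made up 72.9% ± 6.11 of these counts in wild-type and 97.3% ± 0.593 in db/db libraries. Ends 1 base short made up 21.9% ± 4.26 and 2.03% ± 0.508, and ends 2 bases short 5.14% ± 2.02 and 0.698% ± 0.107 (SD, n = 4 each). The ratio of wild type to db/db was 10.8 for 1 missing base and 7.36 for 2. These values are a description, since most fragments 2 bases short met the minimum for listing through the wild-type libraries alone. Of the 17 short fragments, the db/db libraries alone met it for 7, and 6 of these lacked 1 base.

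In base 68, length and start of the complete 3′tRFs the genotypes overlapped. G at base 68 made up 12.8%, 16.5%, 11.6% and 15.6% of the complete 3′tRF counts in wild-type and 13.2%, 16.5%, 13.9% and 13.2% in db/db libraries, with means of 14.2% ± 2.29 and 14.2% ± 1.56 (SD, n = 4 each). Among fragments 1 base short, at starts listed for both bases, G made up 11.5% ± 1.09 and 12.5% ± 2.60. The short fragments with G at these starts met the minimum for listing through wild type alone. They had between 0 and 30 counts each in a db/db library, so the db/db share rests on few molecules. The mean length of the complete 3′tRFs was 21.8 ± 0.138 nt in wild-type and 21.6 ± 0.0699 nt in db/db libraries, and the ranges overlapped. The start at base 52 (24 nt) took the largest part of the complete 3′tRFs, 23.5% ± 3.44 in wild-type and 20.5% ± 0.703 in db/db libraries. The starts at bases 51, 53, 54 and 55 each took between 10.4% and 13.3% of the counts by group mean. The start at base 60, with 16 nt, took 6.58% ± 0.851 and 7.40% ± 1.04. At 0 of the 14 starts did the genotypes separate without overlap.

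**Figure D4:**
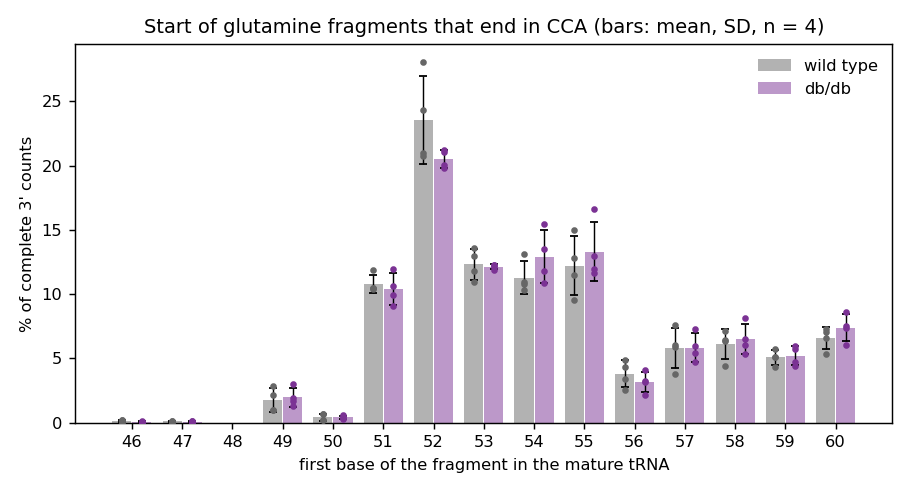
Share of the complete glutamine 3′tRF counts by the base at which they start, in percent, with bars at the group mean, error bars of 1 SD (n = 4 libraries each) and a point per library. Base 52 has the largest share, at 23.5% in wild-type and 20.5% in db/db libraries, and the genotypes overlap at all 14 starts.

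The internal fragments were rare. Mean CPM of single sequences was between 7.50 and 15.3 in wild-type and between 9.70 and 16.6 in db/db libraries, and 2 of the 12 passed the filter on low counts. The more abundant of them in mean CPM, from base 40 to base 60, stood at 19.6, 10.8, 21.8 and 7.72 CPM in wild-type and at 13.5, 16.2, 5.82 and 24.9 CPM in db/db libraries. Libraries of both genotypes were high and low, and the log2 fold change came to 0.02 ± 0.58 (SE; edgeR, adjusted p = 0.986). The other, from base 40 to base 62, had a log2 fold change of 0.45 ± 0.67 (SE; edgeR, adjusted p = 0.751), and over the internal sequences of all tRNAs 4.98% were called higher and 2.99% lower, and 8.57% did not overlap between the genotypes.

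Initiator methionine tRNA, with 45 sequences, is set beside glutamine tRNA here. It had a 5′ family, at 1436 ± 450 CPM in wild-type and 1814 ± 416 CPM in db/db libraries (SD, n = 4 each), which was not called (log2 fold change 0.34, edgeR adjusted p = 0.485), beside 8.33% of 5′ families called higher. Its short 3′tRFs stood at 164, 177, 181 and 175 CPM in wild-type and at 236, 217, 207 and 255 CPM in db/db libraries. In this scaling over families every db/db library was higher. The family was not called, with a log2 fold change of 0.39 ± 0.22 (SE; edgeR, adjusted p = 0.252). They made up 16.5%, 13.4%, 19.4% and 10.1% of its 3′ ends in wild-type and 10.8%, 13.6%, 6.66% and 12.4% in db/db libraries, so that the genotypes overlapped in this share. The complete iMet-CAT family had a log2 fold change of 0.91 ± 0.32 (SE; edgeR, adjusted p = 0.0711) and missed the fold change limit. Whether the change of the short fragments differed between the 2 tRNAs was not tested.

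Beside the other tRNAs, glutamine tRNA had a share of short ends above the median in both genotypes. Without the glutamine fragments, short ends were 2.85% ± 1.23 of the 3′ ends of the table in wild-type and 0.473% ± 0.0555 in db/db libraries (SD, n = 4 each), a ratio of 6.02. Of the 26 names with short fragments, 23 had every wild-type library above every db/db library. The glutamine share was the sixth highest of the 26 in wild-type β-cells, where the median was 3.88%, and the eighth in db/db β-cells, where it was 0.526%. Phe-GAA was highest in wild-type β-cells, with a mean of 32.4%, against 5.15% in db/db β-cells. The families of Asp-GTC and iMet-CAT, with log2 fold changes of −0.14 and 0.39, were the exceptions among the 24 short families tested.

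**Figure D5:**
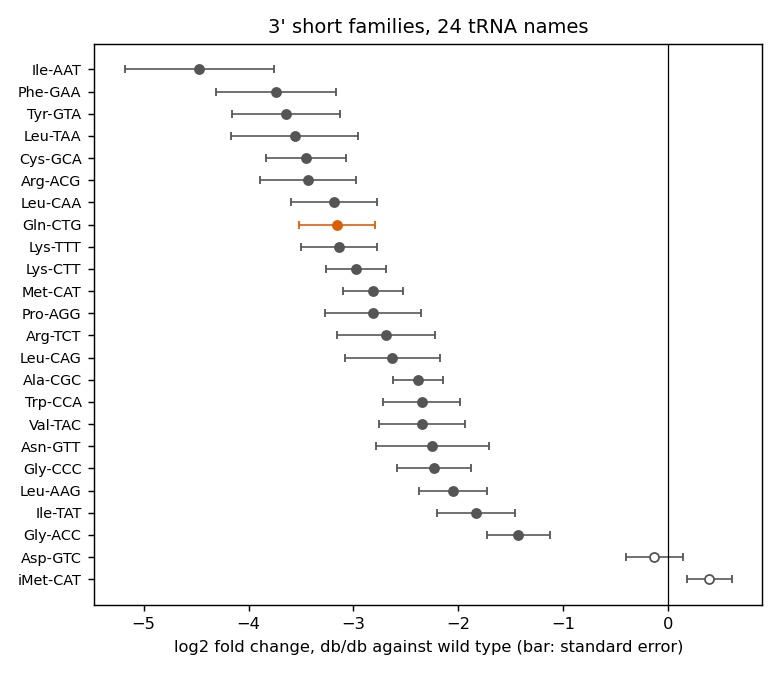
Log2 fold change (db/db over wild type) of the 24 tested families of short 3′tRFs, ordered by size, with bars of 1 SE and filled points for called families and the glutamine family in orange. The glutamine family, at −3.16, is the eighth from the lowest, and 22 of the 24 are called lower.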

How the data were processed

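The authors made the libraries with the QIAseq miRNA kit, which tags molecules with unique identifiers, read them on a NovaSeq sequencer (single-end), collapsed reads above 16 nt by sequence and identifier, aligned them to GRCm38.p6 and matched them with bowtie, without mismatches, to mature tRNAs of GtRNAdb and mitochondrial tRNAs. A molecule copied with another base at a modified position was therefore not counted. The deposited counts are unnormalised unique molecules per sequence and were the basis of every test. The authors' deposited RPM, rounded to whole numbers and treated as a score, and their deposited log2 values gave library totals and sizes for alternative scalings. A column with the authors' own direction of change, in words, was not used.

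Groups follow the library names in the labels, and 0 columns of per-sample values were unmapped. No genome sequence was used. A fragment was a complete 3′tRF if it ended in CCA. It was a short 3′tRF if it ended 1 to 3 bases earlier, placed by 12 or more bases in common with a CCA fragment of the same name. It was a 5′tRF if its first 8 bases were those of the largest group by counts (5 or more sequences with a common beginning) under its name, and these bases lay nowhere further inside, and internal otherwise. Positions came from a chain of overlapping fragments anchored at CCA and the RefSeq gene length (GRCm38.p6).

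Counts of all sequences, families (sums per name and class) and names were each fitted with edgeR 4.0.16 in R 4.3.3 (TMM factors, filterByExpr at 10 counts and a total of 15, genotype as the only term, 8 libraries, Benjamini-Hochberg adjustment over all features). SE was obtained as log2 fold change over the root of the F statistic. CPM is relative to the TMM-scaled tRF total of its own level. Intervals are 95% Wilson intervals (scipy 1.17.1) and cover counting error only. Fits were tested on simulated counts.

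Alternatives were RLE factors, no factor, DESeq2 1.42.0, a likelihood-ratio test, other filters and thresholds, merged sequences, other class rules, a block for label order, scaling to implied totals or to sizes from the log2 values, and leaving out each library. Named sequences were the most abundant tested one of each class, the 5 most abundant and the 5 largest decreases. The internal fragment from base 40 to 62 and the comparison at equal starts, were chosen after their values were seen. The members and lists were chosen with earlier results of these data known. The labels do not number the preparations, and the study's text gives each library as an independent preparation of pooled islets, so p-values measure the spread between such pools.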

Additional observations from a re-analysis of the deposited data

Results flagged for a closer look

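Each group of 4 libraries was examined for a value far from the rest in 40 cases, of which chance would pick about 1 in 20. It was found in 1 of them. The internal glutamine family stood at 190 CPM in wild-type library 3, whereas the other wild-type libraries lay between 96.1 and 110 CPM (scaled over families). The gap was 0.847 of the range of the group, above the critical value of Dixon's test. The 12 sequences of this family are rare, and the cause was not tested.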

How the results depend on the processing

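The short glutamine family was called lower under all 21 alternatives that kept it, of which 2 (factors from the sequences, and short fragments listed by db/db alone) were chosen after seeing the data, with log2 fold changes from −3.83 to −2.94 and an adjusted p of at most 0.00596. The number of glutamine sequences called was 17 in 19 of 20 alternatives, the block for label order among them, and 6 where sequences that share an end were merged. With tolerant classes, which count ends within the last 3 bases as complete, 0 families were called. Without the most abundant sequence, the short share of 3′ ends differed by −13.9 percentage points, against −11.4.

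Scaling moved the direction of some values that were not called, whereas the fragments from bases 53, 54 and 55 to 75 stayed above 0 under all 19 alternatives each. Implied totals shifted the median of all families to −0.53, of sequences to −0.36 and of names to −0.44, and sizes from the log2 values to −0.67, −0.51 and −0.54. Under implied totals and sizes from the log2 values respectively, the log2 fold change was −0.24 and −0.46 for the internal family, −0.17 and −0.24 for the total, −0.024 and −0.079 for the fragment from base 51 to 75, −0.24 and −0.32 for that from base 52 to 75 and −0.34 and −0.64 for that from base 40 to 60. The complete family was at 0.014 under implied totals and at −0.040 under the sizes from the log2 values. With 3 classes, which by construction put the short fragments into the internal family, that family was at −2.52.

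Without 1 library at a time, 17 sequences and 1 family were called, and the short family ranged from −3.51 to −2.94, the complete family from 0.38 to 0.68, the internal family from 0.18 to 0.64 and the total from 0.13 to 0.23. The difference in percentage points ranged from −12.6 to −9.95 for the short share, from 0.148 to 0.478 for the glutamine share of tRF counts and from −0.795 to 0.828 for G at base 68, and in mean length from −0.206 to −0.0970 nt. The fragment from base 52 to 75 ranged from −0.017, without db/db library 3, to 0.34. That from base 40 to 60 reached 0.39 at most, and it was at −0.14 without wild-type library 2, −0.22 without wild-type library 4 and −0.27 without db/db library 4. No paired analysis was possible because no replicate number in the labels is common to both genotypes. The class rule from the sequences alone was the rule in use, so it was not run again as an alternative.

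The depth of the table limits the internal fragments most, since 10 of the 12 could not be tested. Perfect matching and the lengths of 16 to 30 nt limit what can be said of 5′ fragments.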
